A study of Mus musculus with 12 samples.

Results

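The receptors for interleukin-1, interleukin-18 and their relatives were followed across splenic CD4+ T cell populations of NOD and B6.H2g7 mice. The members are Il1r1, Il1r2, Il1rap, Il1rl1, Il1rl2, Il18r1 and Il18rap, and every probe set that the platform annotation gives to exactly 1 of these genes was taken. That gave 13 of the 45037 probe sets tested, standing for 6 of the 7 genes; Il1rl1 was named alone by none and is not analysed here. The family was chosen on measured values, the Treg minus Tconv differences of these arrays, because Il18r1 moved in opposite directions in Treg of the 2 strains and Il1rl2 was low in Treg. The Treg minus Tconv differences of the members are therefore a description, and nothing is read from tests of them.

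The 12 Affymetrix arrays fall into 4 groups of 3. NOD Treg and NOD Tconv came from NOD mice, the strain that develops autoimmune diabetes, and B6.H2g7 Treg and B6.H2g7 Tconv (B6g7 below) from B6 mice congenic for the NOD MHC, so that all groups share the H2g7 haplotype. Mice were 6 weeks old, spleens of 3 mice were pooled per array, and no treatment was given. CD4+ cells free of CD8a, CD11b, CD69 and B220 were sorted as CD25 high (Treg) or CD25 negative (Tconv), so cells bearing the early activation antigen CD69 were gated out of every group. By the labels, 89%, 95% and 95% of the sorted cells in the NOD Treg pools were Foxp3+, as were 94%, 96% and 96% of those in the B6g7 Treg pools.

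Receptors of this family work as pairs: a chain that binds the cytokine recruits an accessory chain, and the joined intracellular TIR domains engage the adaptor MyD88 and the IRAK kinases, which lead to NF-kappaB. IL-18R alpha, encoded by Il18r1, binds IL-18 and pairs with the product of Il18rap. IL-1 receptor type 1 (Il1r1) and the IL-36 receptor chain (Il1rl2) both pair with the product of Il1rap, while Il1r2 encodes a decoy that binds IL-1 without signalling. In T cells IL-18 is best known for acting with IL-12 on interferon-gamma production, IL-1 for acting on cells that make IL-17, and IL-36 for acting on naive CD4+ T cells.

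The promoters of Il18r1, Il18rap and Il1rl2 are shown because the results turn on these genes, which lie side by side on chromosome 1 with Il1r2, Il1r1 and Il1rl1. Each window is 300 bases of the plus strand of the reference mouse genome, GRCm38.p6, as RefSeq places the start, with 250 bases before the start and 50 after it. Capitals mark matches, on either strand, to any of 4 motifs: STAT (TTCNNNGAA), forkhead (TGTTTNC), RUNX (TGTGGT) and ETS (GGAAGT). For Il18r1, the first of 3 RefSeq windows is given.
Il18r1, chr1:40465302-40465601: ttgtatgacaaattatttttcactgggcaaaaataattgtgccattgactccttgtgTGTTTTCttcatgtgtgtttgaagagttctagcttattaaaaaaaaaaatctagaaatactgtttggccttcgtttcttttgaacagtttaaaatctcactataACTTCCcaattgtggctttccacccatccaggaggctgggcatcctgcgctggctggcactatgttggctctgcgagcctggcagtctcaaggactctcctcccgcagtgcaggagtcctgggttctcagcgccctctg
Il18rap, chr1:40515112-40515411: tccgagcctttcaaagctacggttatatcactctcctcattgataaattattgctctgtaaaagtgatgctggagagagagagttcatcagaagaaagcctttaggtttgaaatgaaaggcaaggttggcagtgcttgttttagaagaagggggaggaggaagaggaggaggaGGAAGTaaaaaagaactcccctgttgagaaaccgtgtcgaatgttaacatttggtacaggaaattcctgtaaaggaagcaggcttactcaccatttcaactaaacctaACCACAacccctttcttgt
Il1rl2, chr1:40324339-40324638: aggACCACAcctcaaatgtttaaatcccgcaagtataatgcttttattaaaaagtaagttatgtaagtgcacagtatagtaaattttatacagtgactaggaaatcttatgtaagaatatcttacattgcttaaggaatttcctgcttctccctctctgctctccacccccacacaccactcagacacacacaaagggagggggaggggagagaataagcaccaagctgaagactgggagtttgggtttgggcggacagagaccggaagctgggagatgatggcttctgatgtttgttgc
The Il18r1 window held 1 forkhead match, beginning at -193 from the start, and 1 ETS match on the minus strand at -89. The Il18rap window held 1 ETS match at -77 and 1 RUNX match on the minus strand at 32, after the start. The only match in the Il1rl2 window was a minus-strand RUNX motif at -247. Over the promoter windows of all mouse genes in the same table (32851), 20.5% held the forkhead motif, 23.8% the ETS motif, 16.8% the RUNX motif and 8.30% the STAT motif, which none of the 3 windows held. These letters are those of the reference strain, and the NOD sequence was not used here.

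Il18r1 was read by a single probe set, 1421628_at. Its log2 intensity was 11.40, 11.17 and 11.43 on the NOD Treg arrays, against 10.28, 10.21 and 10.41 on the NOD Tconv arrays. In B6g7 it was 9.41, 9.52 and 9.69 in Treg, against 10.25, 10.11 and 10.24 in Tconv. The 3 NOD Treg arrays were therefore the highest of the 12 and the 3 B6g7 Treg arrays the lowest, with the Tconv arrays of both strains intermingled between them. The Treg minus Tconv difference was 1.04 ± 0.11 in NOD, which is 2.05-fold higher in Treg, and -0.66 ± 0.11 in B6g7, which is 1.58-fold lower in Treg (log2 difference of group means ± standard error of the fit, n = 3 arrays per group). These differences, 1.70 ± 0.15 apart on the log2 scale, are what the family was chosen for. Without the 4 arrays numbered 1 the B6g7 difference was -0.57.

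Seen between strains, Il18r1 in Treg stood 1.80 ± 0.11 log2 units (3.47-fold) higher in NOD than in B6g7. In Tconv the NOD minus B6g7 difference was 0.10 ± 0.11, with a 95% interval of -0.13 to 0.33. The mean over both populations is a contrast separate from the one that picked the gene. It is drawn from the same arrays and the same estimate of spread, so its p-value is not independent of that choice. By it, NOD exceeded B6g7 by 0.95 ± 0.07 (1.93-fold, limma, adjusted p = 3.35e-06). That call held in all 20 alternative settings, with values of 0.91 to 0.99, although the mean joins a large difference in Treg and a small one in Tconv. In RNA of bulk populations, fewer cells carrying a transcript and less of it per cell cannot be told apart. Natural killer cells also carry the IL-18 receptor; the sort took CD4+ cells without CD11b and CD8a. The summed linear intensity of 5 of their 6 listed markers ran from 264 to 284 in NOD Treg, 290 to 318 in NOD Tconv, 259 to 291 in B6g7 Treg and 275 to 318 in B6g7 Tconv. Of these markers, Klra8 and Klre1 were dim in every group (a log2 mean under 5.28, the 25th percentile of probe set means), and 0 were called by limma over the 6 comparisons (2 at an unadjusted p under 0.05).

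**Figure D1:**
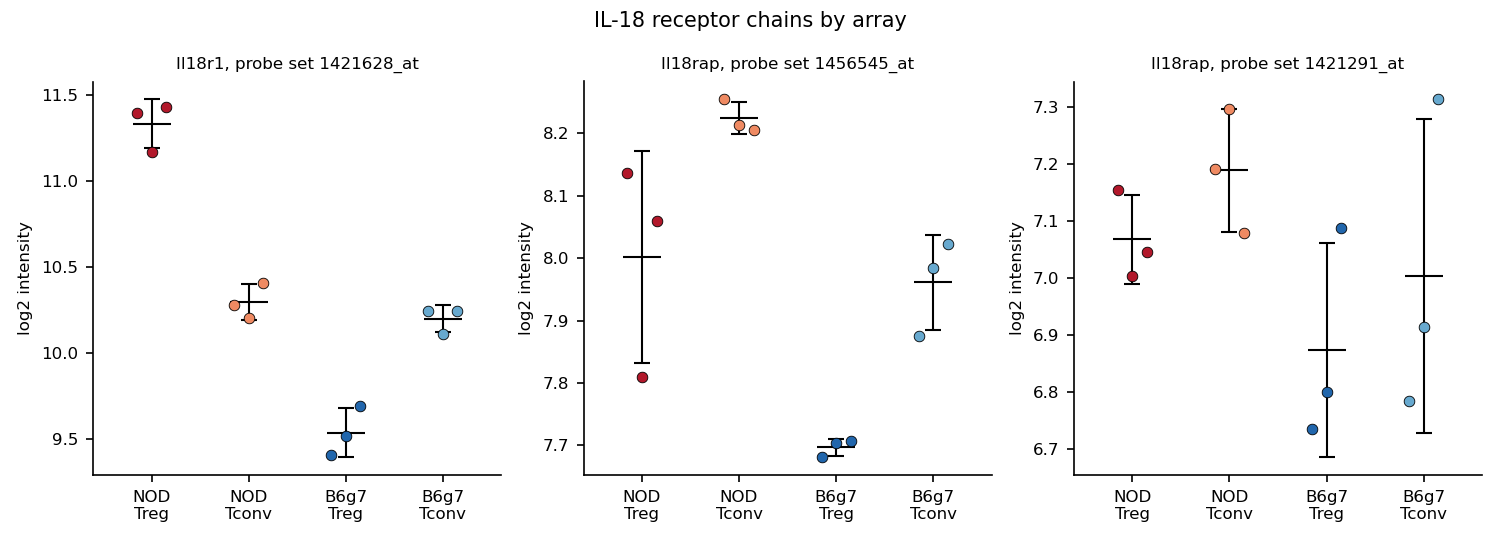
Log2 intensity of the Il18r1 probe set and both Il18rap probe sets on each array, by group; points are arrays, and the black bar and whiskers are the mean ± SD of 3 arrays. Il18r1 sits at 11.17 to 11.43 in NOD Treg and at 9.41 to 9.69 in B6g7 Treg, on either side of both Tconv groups, whereas Il18rap shows no such split; levels are not comparable between panels.

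Il18rap, the signalling partner of IL-18R alpha, did not share the opposite directions. Its brighter probe set, 1456545_at, read 8.14, 7.81 and 8.06 in NOD Treg, against 8.25, 8.21 and 8.21 in NOD Tconv. The B6g7 arrays read 7.68, 7.70 and 7.71 in Treg, against 7.88, 7.98 and 8.02 in Tconv. In both strains all Treg arrays lay below all Tconv arrays, by -0.22 ± 0.09 in NOD and -0.26 ± 0.09 in B6g7, and the 2 differences were 0.04 ± 0.13 apart. Of all 45037 probe sets, 4217 in NOD and 2952 in B6g7 had Treg arrays wholly below Tconv arrays.

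By strain, the same Il18rap probe set was 0.28 ± 0.07 log2 units higher in NOD over both populations (1.22-fold, limma, adjusted p = 0.0219). NOD arrays lay above B6g7 arrays in Treg (0.30, adjusted p = 0.140) and in Tconv (0.26, adjusted p = 0.250), without passing the test in either. Such a separation was common, with 3184 of all 45037 probe sets in Treg and 4647 in Tconv. The call over both populations was borderline. It was lost in 7 of the 12 fits that left out a single array (any NOD Tconv array, NOD Treg 1 or 3, B6g7 Treg 2 or B6g7 Tconv 1; adjusted p from 0.0050 to 0.0631 over the 12) and without the arrays numbered 1 (0.22, adjusted p = 0.306). The second probe set, 1421291_at, ran from 7.0 to 7.15 in NOD Treg and 7.08 to 7.30 in NOD Tconv, against 6.73 to 7.09 in B6g7 Treg and 6.78 to 7.31 in B6g7 Tconv. Its strain difference was 0.19 ± 0.10 (adjusted p = 0.467), and its Treg minus Tconv differences were -0.12 in NOD and -0.13 in B6g7. Over the 12 arrays, which share their groups, Pearson's r was 0.70 between both Il18rap probe sets and 0.49 between Il18r1 and the brighter of them.

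Il1rl2, the ligand-binding chain for IL-36, showed the widest Treg to Tconv gap in the family, and only by 1 of its 2 probe sets. On 1434903_s_at the NOD arrays read 5.51, 5.54 and 5.50 in Treg, against 8.60, 8.56 and 8.67 in Tconv. The B6g7 arrays read 4.98, 5.14 and 5.57 in Treg, against 8.65, 9.08 and 8.37 in Tconv. Treg were thus at or near the dim range in both strains, while every Tconv array stood far above them. The Treg minus Tconv difference was -3.09 ± 0.17 in NOD (8.54-fold lower in Treg) and -3.47 ± 0.17 in B6g7. No fold is given for B6g7, since the mean of 5.23 in B6g7 Treg is dim.

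The other Il1rl2 probe set, 1450273_at, showed no such gap. It read 6.13, 6.17 and 6.06 in NOD Treg, against 6.02, 6.18 and 6.08 in NOD Tconv. In B6g7 it read 6.19, 6.25 and 6.43 in Treg, against 6.10, 5.90 and 6.11 in Tconv. Its Treg minus Tconv difference was 0.03 ± 0.09 in NOD (95% interval -0.18 to 0.23) and 0.26 ± 0.09 in B6g7, where all Treg arrays lay above all Tconv arrays. That held in B6g7 for 3830 of all 45037 probe sets. The 2 Il1rl2 probe sets correlated at r = -0.60 over the 12 arrays. In Affymetrix naming, the suffix _s_at marks probes that can match more than 1 transcript, and which set follows Il1rl2 RNA was not tested. Between strains neither set passed the test: the differences over both populations were 0.10 ± 0.12 (adjusted p = 0.894) for 1434903_s_at and -0.06 (adjusted p = 0.892) for 1450273_at.

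**Figure D2:**
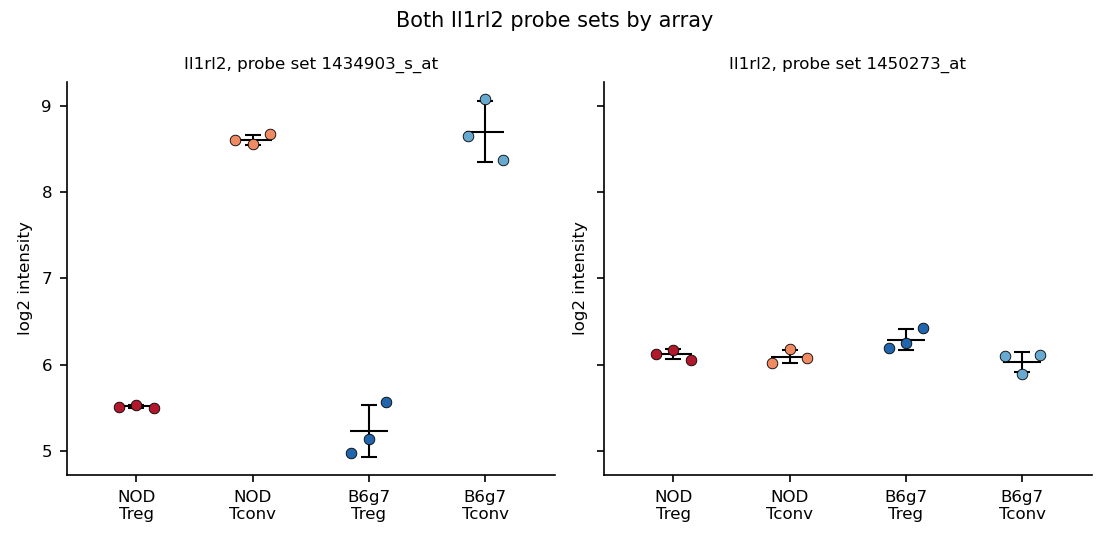
Log2 intensity of both Il1rl2 probe sets on each array, by group; points are arrays, and the black bar and whiskers are the mean ± SD of 3 arrays. The left set falls to 4.98 to 5.57 over the 6 Treg arrays, against 8.37 to 9.08 over the Tconv arrays, while the right set stays between 5.90 and 6.43 everywhere.

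Il1r1, the signalling receptor for IL-1, was close to level. Probe set 1448950_at read 6.64, 6.92 and 6.54 in NOD Treg, against 6.41, 6.39 and 6.57 in NOD Tconv. It read 6.34, 6.49 and 6.63 in B6g7 Treg, against 6.47, 6.25 and 6.34 in B6g7 Tconv. The groups overlapped in both strains, with Treg minus Tconv differences of 0.24 ± 0.12 in NOD and 0.13 ± 0.12 in B6g7. The strain difference over both populations was 0.16 ± 0.08 (adjusted p = 0.477). A second Il1r1 probe set, 1459777_at, was dim on all arrays (2.92 to 3.28).

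The decoy Il1r2 (1419532_at) read 5.83, 5.46 and 5.83 in NOD Treg, against 5.46, 5.41 and 5.45 in NOD Tconv. The B6g7 arrays read 5.65, 5.59 and 5.73 in Treg, against 5.58, 5.37 and 5.78 in Tconv. NOD Treg lay 0.26 ± 0.12 above NOD Tconv and B6g7 Treg 0.08 above B6g7 Tconv, with touching or overlapping arrays, and the strain difference was -0.04 (adjusted p = 0.959).

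Il1rap, the accessory chain shared by the IL-1, IL-33 and IL-36 receptors, was read by 5 probe sets. The brightest, 1421844_at, read 8.37, 8.01 and 8.31 in NOD Treg, against 8.17, 8.05 and 8.05 in NOD Tconv. The B6g7 arrays read 7.99, 8.03 and 7.95 in Treg, against 7.90, 7.90 and 7.66 in Tconv. Its NOD minus B6g7 difference over both populations was 0.26 ± 0.08, which missed the threshold (limma, adjusted p = 0.0860), and it passed in 4 of 20 alternatives, whose adjusted p ran from 0.0196 to 0.398. Leaving out NOD Treg array 2 alone gave 0.31 with the lowest of these. The other 4 sets did not follow it: 1421843_at held 6.65 to 6.87 over all arrays and 1439697_at 5.34 to 6.16, 1442614_at and 1449585_at were dim, and their strain differences were between -0.02 and 0.06.

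**Figure D3:**
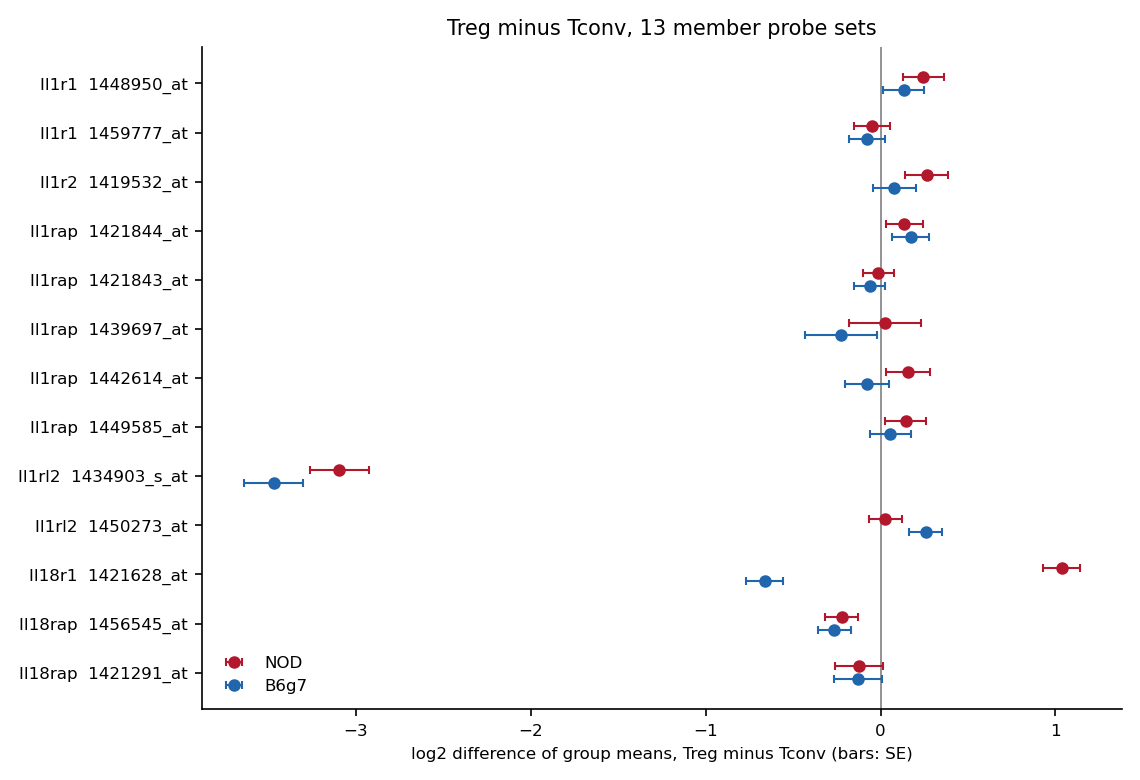
Treg minus Tconv difference in log2 intensity for the 13 probe sets of the family, in NOD and in B6g7; points are differences of group means of 3 arrays and bars the standard error of the fit. Il18r1 lies right of 0 in NOD (1.04) and left of it in B6g7 (-0.66), 1 Il1rl2 set lies near -3 in both strains, and the remaining sets lie between -0.26 and 0.26.

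Counted over the probe sets of the family, 2 of 13 passed the test between NOD and B6g7 over both populations, both higher in NOD, where 5.5% of all 45037 probe sets passed in either direction and 2.73% as higher. Il18r1 is 1 of these 2, and its arrays and spread also served the choice of the family. The median difference was 0.06 for the 13 sets and 0.01 for all probe sets. In Treg alone 1 of 13 passed, Il18r1 with its share of the contrast that chose it, against 3.26% of all probe sets. There 12 of the 13 differences were positive, with a median of 0.18, against 22903 of 45037 and a median of 0.00 over all sets. In Tconv 7 of 13 were positive, against 25205 of 45037 over all sets, and over both populations 8 of 13, against 24644. The 13 sets are not independent, as 5 of them read Il1rap. In Tconv alone 0 of 13 passed in limma (2 at an unadjusted p under 0.05), against 2.96% of all sets. For completeness, and with nothing read from it since these contrasts chose the family, Treg minus Tconv gave 2 of 13 in NOD (background 3.2%), 2 of 13 in B6g7 (3.37%) and 1 of 13 for the difference between strains (0.0933%).

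**Figure D4:**
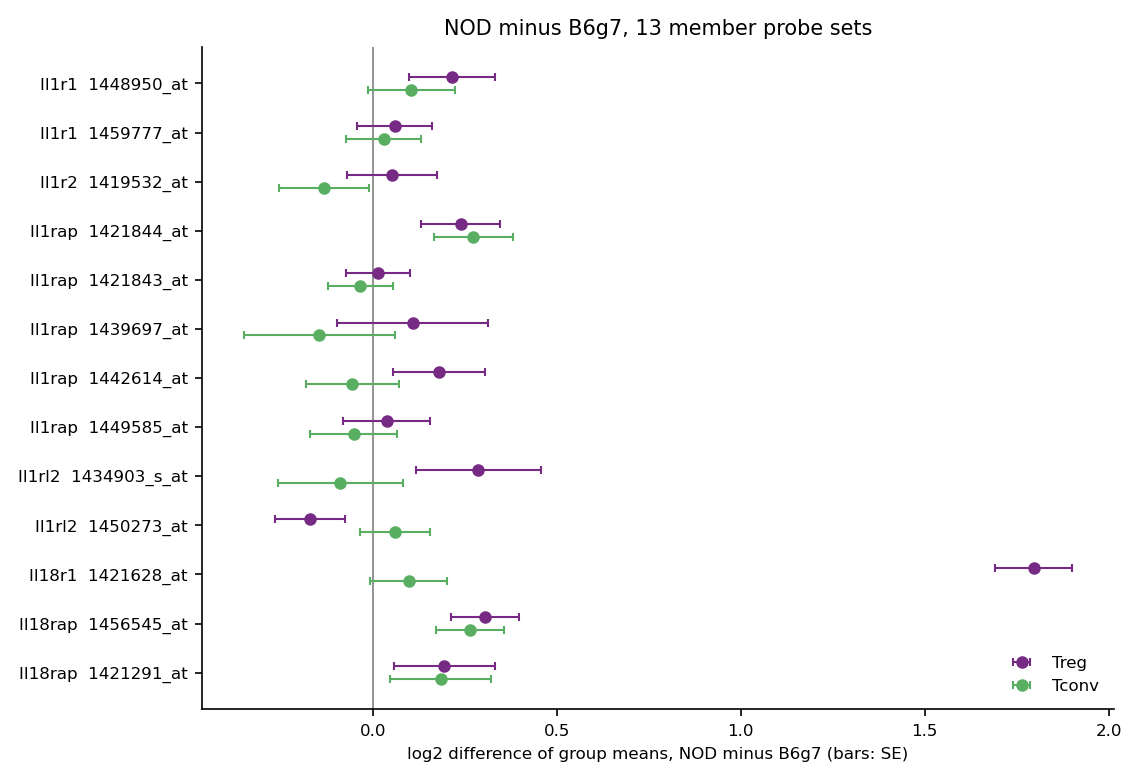
NOD minus B6g7 difference in log2 intensity for the 13 probe sets of the family, in Treg and in Tconv; points are differences of group means of 3 arrays and bars the standard error of the fit. The Il18r1 point for Treg (1.80) stands alone, the others lie between -0.17 and 0.30, and the brighter Il18rap set lies at 0.30 in Treg and 0.26 in Tconv.

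The rest of the pathway was described with 6 lists holding 50 genes, of which 41 were measured, each by its brightest probe set. The lists were drawn up with earlier results of these data known. Their counts beside the share of all genes, here and below, are therefore a description and no test of enrichment. None of the 7 measured ligands and natural antagonists (among them Il1b, Il18 and Il33) passed limma's test in any of the 6 comparisons (0 at an unadjusted p under 0.05). Of the 3 other receptors of the family, Sigirr, Il1rapl1 and Il1rapl2, 0 passed, with 1 at an unadjusted p under 0.05 in Treg minus Tconv of each strain. Over all 41 genes, 4 passed between strains over both populations (2 higher and 2 lower in NOD), against 5.8% of the 18193 genes measured; without NOD Treg array 2 this count was 7. Treg minus Tconv passed for 12 in NOD (8 higher, 4 lower; background 4.38%) and for 8 in B6g7 (6 higher, 2 lower; background 4.55%).

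Among 14 receptor-proximal signalling genes, Irak1bp1 was the only one whose Treg minus Tconv change passed the test of the difference between strains, as 0.11% of all genes did. Irak1bp1, whose product binds the kinase IRAK1, read 6.30, 6.46 and 6.26 in NOD Treg, against 4.45, 4.34 and 4.32 in NOD Tconv, on probe set 1431771_a_at. It read 4.16, 4.15 and 4.03 in B6g7 Treg, against 4.06, 4.11 and 4.11 in B6g7 Tconv, so that only NOD Treg rose out of the dim range. The changes were 1.97 ± 0.09 in NOD (limma, adjusted p = 6.22e-08) and 0.02 in B6g7, and their difference was 1.95 ± 0.12 (adjusted p = 2.58e-05). With dim signal in the other 3 groups, the size of these differences is uncertain and no fold is given. Its other probe set, 1422683_at, was dim too (a mean of 3.92 over all arrays) and gave a difference of 0.16 ± 0.20.

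Map3k7, encoding the kinase TAK1 downstream of the IRAKs, fell to 8.38, 8.55 and 8.50 in NOD Treg, against 10.79, 10.18 and 10.54 in B6g7 Treg. It likewise fell to 8.73, 8.39 and 8.61 in NOD Tconv, against 10.50, 10.45 and 9.94 in B6g7 Tconv (over both populations -1.87 ± 0.12, limma, adjusted p = 5.83e-07). Of its 5 other probe sets, 1447801_x_at gave -1.70 while the other 4 lay between -0.13 and 0.15. Irak3, encoding the IRAK family member that restrains this signalling, was lower in NOD over both populations (-0.59 ± 0.10, adjusted p = 0.00205). By population, Irak3 passed as lower in NOD in Tconv (limma, adjusted p = 0.00127, with values of -1.08 to -0.72 over the alternative settings). It did not pass in Treg. In NOD it was higher in Treg than in Tconv (0.87 ± 0.14, adjusted p = 0.00251), where the NOD Tconv mean of 5.18 was dim. Its other probe set, 1430704_at, gave 0.05 between strains (adjusted p = 0.893) and 0.10 in NOD (adjusted p = 0.841). Irak2, a kinase of the receptor complex, was higher in Treg in NOD (0.69 ± 0.10, adjusted p = 0.00168) and in B6g7 (0.74 ± 0.10, adjusted p = 0.000927).

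Of 4 genes for ligand processing, Casp1, encoding the protease that matures IL-1 beta and IL-18, was higher in Treg than in Tconv by 0.91 ± 0.14 in NOD (adjusted p = 0.00230) and by 0.91 ± 0.14 in B6g7 (adjusted p = 0.00217). Casp1 was also 0.84 ± 0.10 higher in NOD over both populations (1.80-fold, limma, adjusted p = 0.000137). It read 9.0, 8.62 and 9.04 in NOD Treg and 7.91, 7.75 and 8.25 in NOD Tconv, against 8.03, 8.06 and 8.02 in B6g7 Treg and 7.27, 6.97 and 7.14 in B6g7 Tconv. NOD arrays thus lay above B6g7 arrays within each population, as they did for 1314 of 18193 genes in Treg and 2093 in Tconv. Pycard, the inflammasome adaptor, was lower in Treg in NOD (-0.79 ± 0.12, adjusted p = 0.00242). Its other 2 probe sets, 1417347_at and 1446926_at, gave -0.20 (adjusted p = 0.486) and -0.10 (adjusted p = 0.918) there.

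The list of IL-12 and type 1 response genes, which act with IL-18, moved in both directions. Tbx21, encoding the type 1 regulator T-bet, was lower in Treg in NOD (-1.11 ± 0.19, adjusted p = 0.00423) and in B6g7 (-1.80 ± 0.19, adjusted p = 8.79e-05), with a dim B6g7 Treg mean of 5.15. The chemokine receptor Cxcr3 was lower in Treg in NOD (-0.86 ± 0.15, adjusted p = 0.00658). Il12rb1, an IL-12 receptor chain, was higher in Treg in B6g7 (0.69 ± 0.10, adjusted p = 0.00108). It also passed in limma as higher in Treg in NOD. That call was lost without NOD Tconv array 2 (0.44, adjusted p = 0.0504) or NOD Treg array 3 (0.47, adjusted p = 0.0535). Eomes, a T-box factor related to T-bet, was higher in Treg in NOD (1.67 ± 0.20, adjusted p = 0.000304), and its other probe set, 1426001_at, gave 0.47 (adjusted p = 0.0125). In B6g7 Eomes was called higher in Treg as well (0.81), where the other probe set gave 0.06 (limma, adjusted p = 0.907). Ifng, encoding interferon-gamma, was called lower in Treg in NOD. Among other fits, that call was lost without NOD Tconv array 1 (-0.97, limma, adjusted p = 0.164) or NOD Treg array 2 (-0.98, adjusted p = 0.176). In all, 5 of the 7 measured genes passed in NOD (2 higher, 3 lower), against 4.38% of all genes, and 4 of 7 in B6g7 (2 higher, 2 lower), against 4.55%, and 0 passed limma's test of the difference between strains (2 at an unadjusted p under 0.05). In B6g7 Cxcr3 (-0.71 ± 0.15, adjusted p = 0.0236) lost its call without B6g7 Treg array 2 or 3 or B6g7 Tconv array 1 or 3 (adjusted p up to 0.110), and without all arrays numbered 1 (-0.63, adjusted p = 0.156), and Eomes passed in 5 of the 12 fits without a single array.

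Of 6 measured type 2 and type 17 genes, 2 passed in each strain, both higher in Treg, against 4.38% of all genes in NOD and 4.55% in B6g7. Ccr6, a chemokine receptor of IL-17-producing and regulatory T cells, was higher in Treg by 1.48 ± 0.15 in NOD (2.79-fold, adjusted p = 7.58e-05) and by 1.12 ± 0.15 in B6g7 (2.18-fold, adjusted p = 0.000707). Gata3, the type 2 regulator, was higher in Treg by 0.94 ± 0.12 in B6g7 (adjusted p = 0.000628); in NOD it was 0.51 ± 0.12 (adjusted p = 0.0437), and 9 of the 12 fits without a single array, those leaving out any NOD array among them, lost that call (up to 0.199), as did leaving out all arrays numbered 1 (0.53, adjusted p = 0.143).

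**Figure D5:**
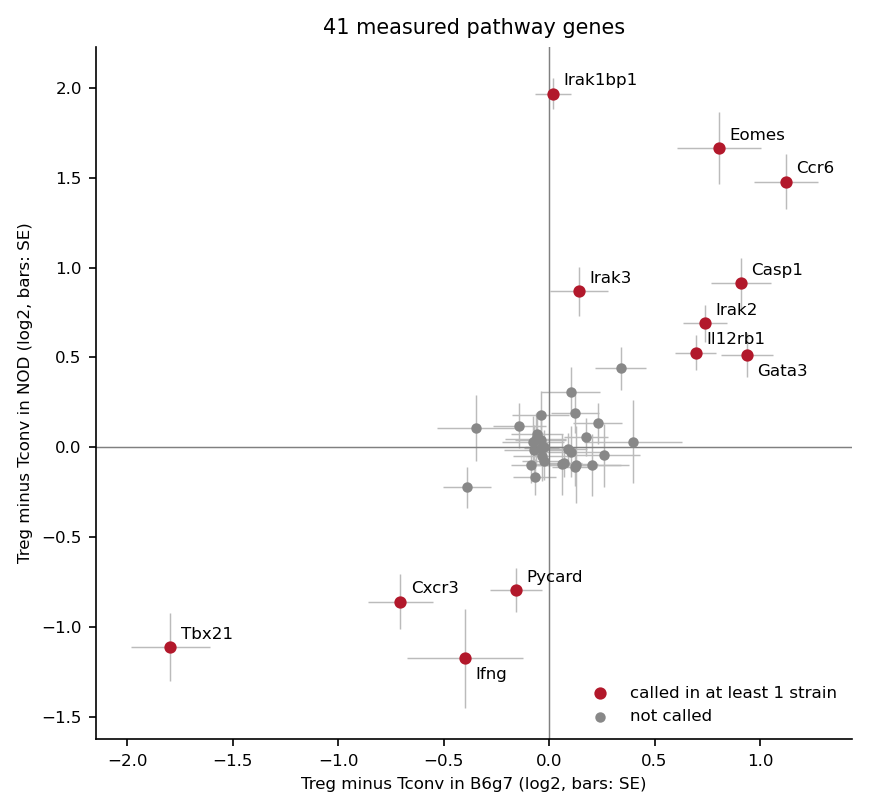
Treg minus Tconv difference in log2 intensity of the 41 measured pathway genes, in B6g7 on the horizontal axis and in NOD on the vertical axis; bars are standard errors of the fit and red points passed the test in at least 1 strain. Irak1bp1 lies at 1.97 in NOD and 0.02 in B6g7; Ccr6, Casp1 and Irak2 are higher in Treg in both strains and Tbx21 lower in both.

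The genes whose pattern over the 12 arrays was most like that of Il18r1, among 15366 genes, were Bcl2l15 (Pearson's r = 0.967), Lmo4 (0.929), Ift122 (0.911), Ift140 (0.906) and Pik3ap1 (0.901). Bcl2l15, a BCL2 family member, averaged 6.97 in NOD Treg and 5.98 in NOD Tconv, against 5.09 in B6g7 Treg and 5.49 in B6g7 Tconv, the same order of group means as Il18r1, with B6g7 Treg dim. For Il1rl2 by 1434903_s_at the closest were Rgmb (0.992), Slc16a5 (0.991), Pxylp1 (0.991), App (0.990) and Lypd6b (0.988). App, the amyloid precursor gene, averaged 7.58 in NOD Treg and 10.77 in NOD Tconv, against 7.12 in B6g7 Treg and 10.63 in B6g7 Tconv. These correlations rest on groups that share their arrays and carry no test.

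Beyond the receptor cluster on chromosome 1, 7 measured neighbours in the RefSeq gene order, from Creg2 and Map4k4 on one side to Slc9a4, Slc9a2 and Tmem182 on the other, were compared as well. In limma, 0 of 7 passed in any of the 6 comparisons, and 0 had an unadjusted p under 0.05. Their differences ran from -0.27 to 0.19. Of the 7, Creg2, Rfx8, Slc9a4, Slc9a2 and Tmem182 had means under the dim limit, so a change in them may not have been measurable, while those of Map4k4 and Mfsd9 lay above it.

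As to the arrays themselves, all 5 Treg markers (Foxp3, Il2ra, Ikzf2, Ctla4 and Tnfrsf18) were higher in Treg in both strains, with summed intensities of 12118 to 15703 in NOD Treg and 1736 to 2121 in NOD Tconv, against 12065 to 17449 in B6g7 Treg and 1113 to 1322 in B6g7 Tconv. Between strains in Tconv, 2 of these 5 passed limma's test, both higher in NOD, against 2.96% of all probe sets. The 3 measured T cell markers gave 0 calls over the 6 comparisons (6 at an unadjusted p under 0.05). Their sums ran from 6140 to 7863 in B6g7 Treg, 8616 to 9210 in B6g7 Tconv, 7558 to 8628 in NOD Treg and 8577 to 8965 in NOD Tconv. Over 7 lists of markers for other cell types, 1 gene passed in 1 comparison, the mast cell gene Kit, higher in Treg in NOD (0.80, limma, adjusted p = 0.00438). At an unadjusted p under 0.05, CD8 T cell markers gave 4 results, mast cell and basophil markers 3, natural killer and dendritic cell markers 2 each, and the rest 0. Arrays of a group correlated at 0.983 to 0.996. The actin 3' minus 5' signal, a sign of RNA length after 2 rounds of amplification, ran from 2.66 to 4.70 log2 units, lowest on the arrays numbered 1 of NOD Treg, NOD Tconv and B6g7 Treg. Values without the arrays numbered 1 are given beside the calls named here that this ends, and a fit with the actin difference as a covariate was run; its part in the results was not tested further.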

How the data were processed

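RNA of 12 arrays in 4 groups of 3 was measured on Affymetrix expression arrays. The authors deposited 1 linear intensity per probe set and array, and the submitters' processing notes name RMA, without a version, for the normalization. The deposited intensities ran from 5.78 to 27207 and hold no detection calls. Here log2 was taken, with no pseudocount, filter or further scaling. Of 45101 probe sets, 64 controls were left out; of 45037 tested, 34945 name 1 gene, 932 several and 9160 none. A gene outside the family was represented by its brightest probe set.

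limma 3.58.1 in R 4.3.3 (lmFit, eBayes, a mean per group) gave 6 comparisons over all 12 arrays, with Benjamini-Hochberg adjustment over all probe sets and a threshold of 0.05. The fit was tested on simulated data. Every interval is at 95% and the 3 arrays per group limit precision; replicates are independent pools, per the series text. Members and gene lists were chosen with earlier results of these data known. From each pathway list, mainly the called genes of smallest adjusted p in a comparison are named, and not every called gene is. Likeness names the 5 of highest r.

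Same-numbered arrays deviated together, a sign taken from the data, between NOD Treg and NOD Tconv (correlations 0.31 to 0.56) and between NOD Treg and B6g7 Treg (0.30 to 0.67), but not in every pair with B6g7 Tconv (lowest -0.21). A replicate block was therefore an alternative, beside leaving out arrays, array weights, an actin covariate, quantile normalization, a pseudocount of 16, other eBayes settings and other probe sets.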

Additional observations from a re-analysis of the deposited data

Results flagged for a closer look

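The Treg minus Tconv change of Il18r1 differed by 1.70 log2 units between NOD and B6g7, because all NOD Treg arrays lay above the NOD Tconv arrays and all B6g7 Treg arrays below the B6g7 Tconv arrays. The family was chosen for this difference, so nothing is read from a test of it. The change of Irak1bp1 on probe set 1431771_a_at differed by 1.95 ± 0.12 between the strains (limma, adjusted p = 2.58e-05), with 1.97 in NOD and 0.02 in B6g7, where its signal was dim, as in NOD Tconv, so the size is uncertain. The list that holds Irak1bp1 was drawn up with earlier results of these data known. Groups of 3 arrays were too small to look for single outlying arrays.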

How the results depend on the processing

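Of the values for single probe sets, 2226 kept their side of the threshold, 55 lost the call and 9 gained it. Another 32 moved by more than the replicate SD, and 2 that were called turned sign. These 2 are the Il1rl2 change from Tconv to Treg when probe set 1450273_at replaced the brightest, 0.026 in NOD and 0.26 in B6g7. Sign was not compared for values without a call, so some of the 2226 and of the 32 changed direction too. For example, the Il1r2 strain difference over both populations was -0.04 in the main fit and reached 0.05 in the alternatives. Of counts of calls, 229 stayed within 1.5 times and 19 did not. Between strains over both populations, the 2 family probe sets called became 1 without the arrays numbered 1, 4 with array weights (of the 3 genes Il18r1, Il18rap and Il1rap) and 1 to 3 without single arrays, and the 4 pathway genes became 7 with the replicate block, 8 with the actin covariate, 10 with array weights and 4 to 7 without single arrays. Between strains in Treg, the 1 family probe set became 2 with array weights and 1 to 2 without single arrays, and the 4 pathway genes became 2 without the arrays numbered 1. For Treg minus Tconv in B6g7, which chose the family, the 2 family probe sets became 1 without the arrays numbered 1 and 4 with array weights, among them both Il1rl2 sets in opposite directions; nothing is read from these. The 1 pathway gene that differed in change between strains became 2 with the replicate block, which changed no call of a family probe set. In B6g7 Tconv, arrays 1 and 3 deviated with the arrays of the same number (correlations 0.20 to 0.52), while array 2 did not (-0.21 to -0.04). Fitting only the groups compared could not be applied to the mean and difference contrasts. The cause of these shifts was not tested. With 3 arrays per group, and no detection calls, small differences of dim probe sets cannot be judged.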
